A study of Homo sapiens with 3 samples.

Results

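Protein prenylation is the attachment of a farnesyl or geranylgeranyl lipid to a cysteine near the C-terminus of a protein, and 8 genes of this process were examined here: the prenyltransferase subunits FNTA, FNTB, PGGT1B, RABGGTA and RABGGTB, the CAAX proteases RCE1 and ZMPSTE24, and the methyltransferase ICMT. These 8 of the 43317 gene names on the array were carried by 11 of its 58201 probes, and all 11 probes were well above background on all 3 arrays, so that none was lost to a filter on low values. ICMT was chosen by its measured difference between SMARCA4 knockdown and control on these same arrays, and the other members were added as its pathway neighbours with those results known. Every difference from control given here is therefore a description and was not tested, and nothing is supported with it.

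Gene expression was measured in HCT116, a human colorectal cancer cell line, on Agilent arrays with 1 colour. Cells received one or the other of a pair of small interfering RNAs against SMARCA4, the ATPase of the SWI/SNF chromatin remodelling complex (SMARCA4-KD1 and SMARCA4-KD2, shortened to KD1 and KD2), or a scrambled control oligonucleotide (NC), by lipid transfection. The study used these arrays to find genes that depend on SMARCA4. There was 1 array per group from a single cell line under transient transfection, so no value has a replicate, and precision is limited by the number of arrays. KD1 and KD2 shared slide 1 and NC was scanned apart on slide 2, so that slide and knockdown cannot be told apart, and both knockdowns were set against the same NC array. The protocol prints 1 strand of 19 bases for each small interfering RNA without saying which strand it is or which of them is KD1, and the first is shown with G and C in capitals because the contrasts rest on it and its partner.
SMARCA4 siRNA-1: uCGCuuuGGuuCGCaaauC

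The sample titles name SMARCA4 but the treatment field names PRMT1, so the level of each was read first. The processed signal of the SMARCA4 probe was 3960.2 in KD1, 4129 in KD2 and 14026 in NC. After scaling of each array to its 75th percentile, SMARCA4 was 3.76-fold lower in KD1 and 3.47-fold lower in KD2. The PRMT1 probe differed from NC by 0.27 and 0.37 on the log2 scale, so that PRMT1 was not lower in either knockdown. As a check of the cell type, 7 of 7 colon epithelial markers, such as EPCAM and the keratins KRT8, KRT18 and KRT19, were well above background on all arrays. Among 10 markers of leukocytes, endothelium and fibroblasts, CD79A, PTPRC, CDH5 and COL1A1 were well above background on all 3 arrays, CD68 had no probe, and CD3E, PECAM1, COL1A2, COL3A1 and DCN were well above background on none. The tight junction genes CLDN4 and CLDN7 were the epithelial markers at least 1.5-fold from NC in both knockdowns, in opposite directions, with log2 differences of -0.67 and -0.68 for CLDN4 and 0.79 and 0.72 for CLDN7, while the other CLDN4 probe gave -0.15 and -0.03.

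Farnesyltransferase and geranylgeranyl transferase I share the alpha subunit FNTA, which pairs with the beta subunit FNTB in the first enzyme and with PGGT1B in the second. Both enzymes modify proteins that end in a CAAX motif, such as Ras GTPases and the nuclear lamins. Rab GTPases are modified by geranylgeranyl transferase II, built of RABGGTA and RABGGTB, once an escort protein has presented them. CAAX proteins then pass to the endoplasmic reticulum, where RCE1 removes the terminal residues and ICMT methylates the exposed prenylcysteine. ZMPSTE24 is a zinc protease known for the maturation of prelamin A, the precursor of the lamin made by LMNA. Ras proteins are the best known clients of this route.

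Against NC, 1 of 11 member probes was at least 1.5-fold lower in KD1, where 12.5% of all probes well above background on either array of the comparison were, and 1 of 11 was at least 1.5-fold lower in KD2, where 10.1% of all such probes were. In the upward direction, 1 of 11 member probes passed 1.5-fold in KD1 beside 11.9% of all probes, and 1 of 11 in KD2 beside 10.5%. The lower probe was 1 of the 2 ICMT probes and the higher one was the ZMPSTE24 probe, in each knockdown. No reading is made from these shares, since the members were chosen with this contrast known. In this bulk RNA, fewer cells that carry a transcript and less transcript per cell cannot be told apart. Between the knockdown arrays themselves, 1 of 11 member probes, for PGGT1B, was at least 1.5-fold apart, beside 6.5% of all probes.

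**Figure D1:**
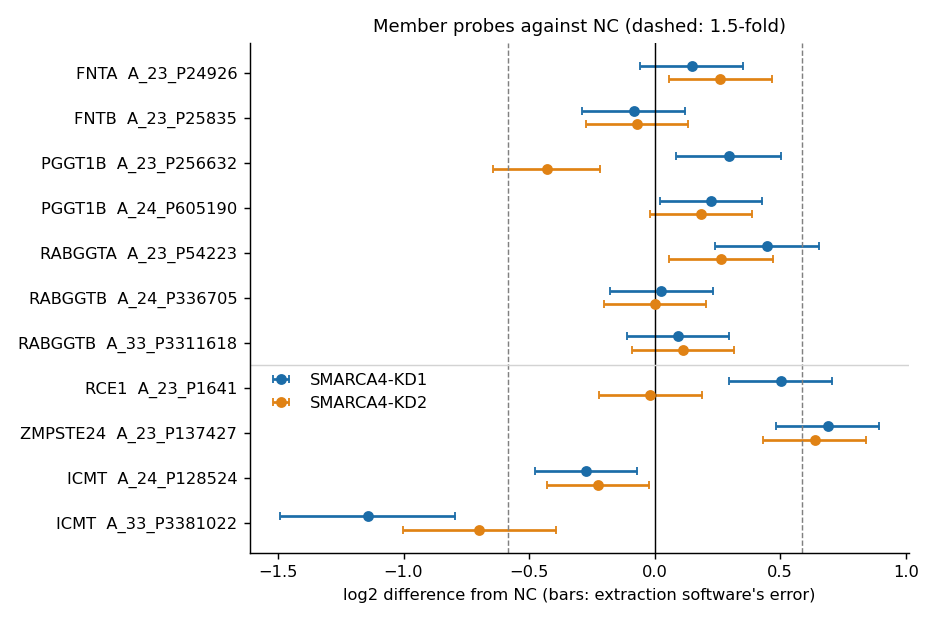
Log2 difference from NC of the 11 member probes in KD1 and KD2 (x axis), with each probe's gene on the y axis, prenyltransferase subunits above the grey line and CAAX processing enzymes under it. Bars give the extraction software's error of the difference, and dashed lines mark 1.5-fold. The ZMPSTE24 probe lies above 1.5-fold and the A_33_P3381022 probe of ICMT under it in both knockdowns.

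The prenyltransferase subunits differed from NC by less than 1.5-fold at every probe. FNTA, the shared alpha subunit, had a processed signal of 6639.5 in KD1, 6926 in KD2 and 5649.7 in NC, log2 differences of 0.15 and 0.26. For FNTB, the farnesyltransferase beta subunit on chr14:65529014-65529073 (positions are hg19, as the array files give them), the signals of 1119, 1089 and 1117 in the same order gave -0.08 and -0.07. The error that the extraction software attaches to such a log2 difference was 0.20 for both genes, and it covers the spots of the arrays and no spread between samples. RABGGTA, the alpha subunit of the Rab enzyme, gave signals of 323 in KD1, 274 in KD2 and 223 in NC. Its log2 differences were 0.45 and 0.27 with an error of 0.21, and the one in KD1 was the highest of the 7 prenyltransferase probes. The RABGGTA probe spans 230 bases of the genome, chr14:24737375-24737604, with a length of 60 bases, so that it joins separate stretches of the gene.

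RABGGTB, the beta subunit of that enzyme, was measured by a pair of probes 4822 bases apart on chromosome 1. The A_24_P336705 probe read 7924 in KD1, 7504 in KD2 and 7328 in NC, and its log2 differences of 0.03 and 0.0020 changed sign under quantile normalization, to -0.08 and -0.11. At A_33_P3311618 the signals were 1952, 1908 and 1724, with log2 differences of 0.09 and 0.11. The error was 0.20 at both probes, and they differed from each other by 0.07 and 0.11 in these differences. No probe of either subunit of the Rab enzyme passed 1.5-fold. Whether the subunits differ in response was not tested.

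PGGT1B, the beta subunit of geranylgeranyl transferase I, also has a pair of probes, 788 bases apart on chromosome 5 and both on the minus strand, and these are shown because they differ in KD2. The first 30 of 60 bases of each are given 5′ to 3′ with G and C in capitals, and G and C made up 35% of either probe. A_23_P256632 lies at chr5:114547894-114547953 and A_24_P605190 at chr5:114547046-114547105.
A_23_P256632: tGaGCCaGtaatCtttataCtGGGtttCaa
A_24_P605190: CaGtGGtGtaaCtCaataCatGGtCatttt
A_23_P256632 had a signal of 203 in KD1, 118 in KD2 and 156 in NC, so that the knockdown arrays lay on either side of NC. Its log2 differences were 0.29 ± 0.21 and -0.43 ± 0.21 (extraction error). At A_24_P605190 the signals of 590.3, 553 and 476 put both knockdown arrays above NC, by 0.22 ± 0.20 and 0.18 ± 0.20. The probes thus differed by 0.07 ± 0.29 in KD1 and by -0.61 ± 0.30 in KD2. The knockdown arrays were 1.65-fold apart at A_23_P256632 and 1.03-fold apart at A_24_P605190. Under normexp, a background correction that adds an offset of 50, the log2 difference between them at A_23_P256632 went from 0.72 to 0.50, under 1.5-fold, and that of KD2 from NC went to -0.21. Among the 5866 probes of the same brightness class as A_23_P256632 (class 3 of 5 equal classes, 1 being the dimmest), 1.52% were at least 1.5-fold apart between the knockdown arrays.

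ZMPSTE24 was the member that lay above NC by 1.5-fold in both knockdowns. Its probe lies at chr1:40759577-40759636 on the plus strand, and the first 30 of its 60 bases are shown because it carries the upward call.
A_23_P137427: atCaaCtGtaCGCCtttGGtatCtGaCCat
The processed signal was 13509 ± 1351 in KD1, 12558 ± 1256 in KD2 and 7897 ± 790 in NC (extraction error). Both knockdown arrays were high and NC was low, and the knockdown arrays were within 1.04-fold of each other. After scaling, ZMPSTE24 was 1.61-fold higher in KD1 and 1.55-fold higher in KD2, log2 differences of 0.69 and 0.64 with an error of 0.20 each. In KD1, 2457 of 28326 probes (8.67%) had a higher difference, and in KD2 2496 of 28456 (8.77%) did. The probe belongs to brightness class 5, where 10.5% of probes were at least 1.5-fold higher in KD1 and 8.47% in KD2. Quantile normalization brought its log2 differences to 0.55 and 0.52, under the 0.58 that 1.5-fold stands for.

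RCE1 is the CAAX protease that acts before ICMT. Its probe, at chr11:66613646-66613705, gave signals of 518 in KD1, 348 in KD2 and 344 in NC. KD1 was high and the other two arrays were alike, with log2 differences from NC of 0.50 and -0.02 and an error of 0.20 to 0.21. The knockdown arrays were 1.43-fold apart, which is under the 1.5-fold used for calls.

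ICMT, the enzyme that closes CAAX processing by methylating the prenylcysteine, was read by a pair of probes on the minus strand of chromosome 1 that lie 13129 bases apart. A_24_P128524, at chr1:6281316-6281375, begins at base 4692 of the transcript it was designed on, and A_33_P3381022, at chr1:6294505-6294564, begins at base 352 of a different listed transcript. Which exons or untranslated regions they lie in was not analysed here. The first 30 of 60 bases of each are shown because their base composition is unlike, with G and C in capitals: these made up 16.7% of A_24_P128524 and 46.7% of A_33_P3381022.
A_24_P128524: aGtaattattCtaCtCttCtttttaCataa
A_33_P3381022: CtaGtGCatCCCCaCaGCCaCtGtaGGatt

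At A_24_P128524 the signal was 488 ± 49 in KD1, 486 ± 49 in KD2 and 555 ± 56 in NC. NC was the highest of the 3 arrays and the knockdown arrays differed by 1.03-fold. Scaled to the 75th percentile, this probe was 1.21-fold and 1.17-fold lower than NC, log2 differences of -0.27 ± 0.20 and -0.23 ± 0.20. In KD1, 27.5% of all probes tested had a lower difference, and in KD2 28.1% did. This probe, with a signal at least 28.9 times the lowest well above background on its array, did not pass 1.5-fold in either knockdown under any of 5 alternatives, where it ranged from -0.33 to -0.27 and from -0.27 to -0.23.

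The other ICMT probe, A_33_P3381022, gave 19.7 ± 4.0 in KD1, 25.8 ± 4.2 in KD2 and 41.0 ± 5.5 in NC. NC was again the highest, and the probe was 2.21-fold and 1.62-fold lower in the knockdowns, log2 differences of -1.14 ± 0.35 and -0.70 ± 0.31. These signals sat close to the background: they were 1.17, 1.59 and 2.32 times the lowest signal that was well above background on the respective array. Before background subtraction the mean pixel value was 54.4 over a local background of 26 in KD1, 59.7 over 26 in KD2 and 78.4 over 25 in NC. The unsubtracted values therefore differed less than the processed ones, with the same order. Under normexp the log2 differences of this probe were -0.29 and -0.21, and no member probe was then 1.5-fold lower in either knockdown.

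**Figure D2:**
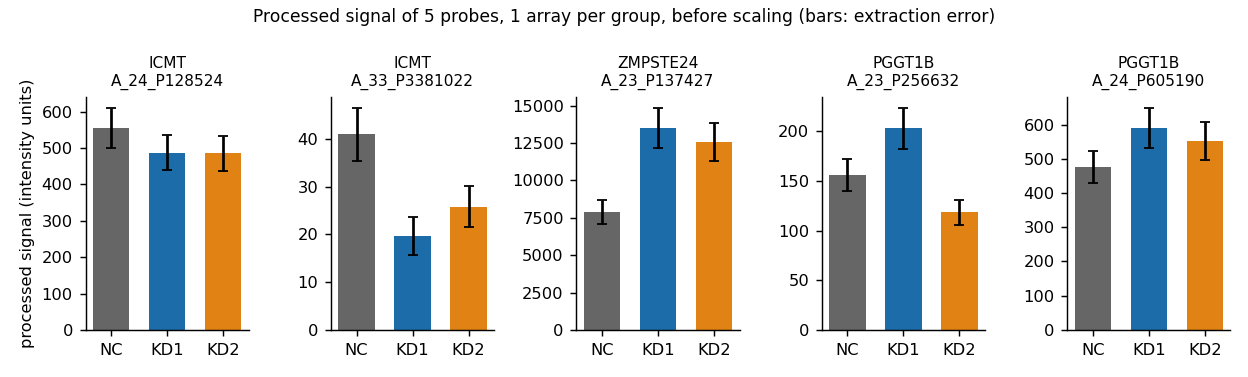
Processed signal in intensity units (y axis, each panel with its own scale from 0) on the NC, KD1 and KD2 arrays for both ICMT probes, the ZMPSTE24 probe and both PGGT1B probes. Bars are single arrays before scaling and the error bars are the extraction software's error. NC is the highest array at both ICMT probes and the lowest at ZMPSTE24, and at A_23_P256632 of PGGT1B it lies between the knockdown arrays.

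The ICMT probes had the same direction. Their log2 differences from NC were 0.87 ± 0.40 apart in KD1 and 0.47 ± 0.37 apart in KD2, and under normexp they were -0.31 at A_24_P128524 beside -0.29 in KD1 and -0.27 beside -0.21 in KD2. The offset of 50 is above every signal of A_33_P3381022 and shrinks its differences by construction, so these values do not show that the probes agree. Whether the size of the difference depends on the probe was not tested. Repeated spots of other probes show how far single spots vary at each signal: where the signal was over 200, spots of 1 probe on 1 array had a log2 SD whose median was 0.03 on each array. At signals within 2-fold of A_33_P3381022 that median was 0.27 in KD1, 0.22 in KD2 and 0.21 in NC, over 4, 7 and 5 probes. A_33_P3381022 belongs to brightness class 1, where 15.1% of 5867 probes were at least 1.5-fold lower in KD1 and 12.8% in KD2. In that class the knockdown arrays, which share a slide, were at least 1.5-fold apart at 20.6% of probes, and in class 4, to which A_24_P128524 belongs, at 0.903%.

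By likeness of pattern, measured as the Euclidean distance over log2 values of the 3 arrays centred on NC, the pathway gene nearest to A_24_P128524 was PDE6D, which carries prenylated proteins through the cytosol, at a distance of 0.01. Next came FDPS, which makes farnesyl diphosphate, at 0.07, and the prenylated phosphatase PTP4A3, at 0.08. Of 22619 other genes, 27, 461 and 574 lay within these distances, or 27, 405 and 507 when required well above background on every array. Nearest to A_33_P3381022 were the Rab escort protein CHML at 0.14, HRAS at 0.21 and the CAAX protein GBP2 at 0.32. Within these distances lay 83, 223 and 615 genes, or 71, 202 and 555 with that requirement. Extraction errors were 0.20 at A_24_P128524 and 0.31 to 0.35 at A_33_P3381022. All distances but that of GBP2 were smaller than these, and the order of the genes was not tested.

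Beyond the members, 118 genes in 9 lists cover the supply of isoprenoids and methyl groups, the partners of prenylated proteins and their clients, and 115 of them had a probe well above background on at least 1 array. A gene stands for its brightest probe. Of these 115 genes, 11 were at least 1.5-fold lower in both knockdowns, where 8.05% of all 22620 genes were, and 11 were at least 1.5-fold higher in both, where 6.35% of all genes were. The median log2 difference over the 115 genes was 0.02 in KD1 and -0.0039 in KD2, and over all genes it was -0.0038 and 0.02. With quantile normalization 16 of the genes were lower and 10 higher in both knockdowns, and with normexp 7 were lower and 10 higher. The shares of 8.05% and 6.35% are for the main setting only. Over all genes, 2775 in KD1 and 2209 in KD2 were lower, 2902 and 2437 with quantile normalization and 1357 and 1013 with normexp. Higher were 2528 and 2294, 2316 and 2088 with quantile normalization and 1519 and 1238 with normexp.

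The mevalonate pathway supplies the farnesyl and geranylgeranyl groups. Of its 10 genes, 2 were at least 1.5-fold lower in both knockdowns and none was higher, and the list's median was -0.30 in KD1 and -0.32 in KD2. HMGCS1, the HMG-CoA synthase, had log2 differences of -1.32 and -1.25, and ACAT2, the thiolase of the first step, -0.78 and -0.85. FDPS had -0.27 and -0.30, and GGPS1, which makes geranylgeranyl diphosphate, -0.07 and -0.07. The genes called in both knockdowns thus act early in the pathway.

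ICMT takes its methyl group from S-adenosylmethionine, and of the 3 methyl donor genes 1 was at least 1.5-fold higher in both knockdowns and none lower, with a median of 0.42 in each. This was MAT2A, which makes S-adenosylmethionine, with log2 differences of 0.70 and 0.74, and 1.07 and 1.06 at its other probe. Among 9 genes that attach or remove palmitate on prenylated Ras proteins, 1 was 1.5-fold higher in both knockdowns and none lower. With the mean over a gene's probes, 2 were higher. The gene called by its brightest probe was the palmitoyltransferase ZDHHC18, with 1.38 and 1.28.

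Partners of prenylated proteins (12 genes: Rab escort proteins, dissociation inhibitors and carriers, among others) had a median of -0.23 in KD1 and -0.26 in KD2, with 2 genes 1.5-fold lower in both knockdowns, 1 of them with normexp, and none higher. CHML, an escort protein that presents Rab GTPases to the Rab enzyme, had log2 differences of -1.26 and -0.78, while its paralogue CHM had -0.19 and -0.19. PTAR1, the alpha subunit of geranylgeranyl transferase III, had -0.62 and -0.58, the latter just short of 1.5-fold and -0.62 with quantile normalization, while with normexp neither passed at -0.53 and -0.48, and its other probes ranged from -1.07 to -0.22 over both knockdowns. PCYOX1, which breaks down prenylcysteines, had -0.27 and -0.35. For the pair of listed targets of geranylgeranyl transferase III, FBXL2 had 0.93 and 0.77 and YKT6 had 0.18 and -0.04.

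Of the clients of CAAX processing, not all lists are described. Of 15 Ras, Rap and Ral genes, 1 was 1.5-fold lower in both knockdowns and 2 were higher, and the list's median was 0.25 in KD1 and 0.06 in KD2. HRAS had log2 differences of -1.17 and -0.91, and NRAS 1.06 and 0.97. The other NRAS probe gave 0.87 and 0.83, and RAP2C had 0.84 and 0.89. HRAS and NRAS thus lay on opposite sides of NC in both knockdowns.

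Of 22 lamins and other CAAX proteins, 20 were measured, 3 were 1.5-fold lower in both knockdowns (5 with quantile normalization) and 2 higher, with a median of -0.12 and -0.16. LMNA, whose precursor ZMPSTE24 cleaves, had log2 differences of -0.50 and -0.68 at its brightest probe, and from -1.03 to -0.98 at its other probes over both knockdowns. LMNB1, a lamin that keeps its farnesyl group, had -0.51 and -0.26. The mitotic proteins CENPE and CENPF had -1.23 and -1.01, and -1.20 and -1.10. GBP2 was well above background on the NC array only, so its knockdown values were raised to the lowest value well above background. It was then 1.91-fold lower in either knockdown, log2 differences of -0.93 with errors of 1.47 in KD1 and 1.16 in KD2. This call was lost with normexp at -0.42 and -0.36. Higher in both were the phosphatase PTP4A1, with 0.76 and 0.72, and the peroxisomal import factor PEX19, with 0.74 and 0.63. LMNA and ZMPSTE24 thus lay on opposite sides of NC in both knockdowns.

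Of 31 Rab GTPases, the clients of RABGGTA and RABGGTB, 30 were measured, 3 were 1.5-fold lower in both knockdowns and 1 was higher, and with normexp 1 was lower and 0 were higher. RAB27B, which acts in secretion, had log2 differences of -1.61 and -1.51, and -1.63 and -1.76 at its other probe. Its paralogue RAB27A had -0.77 and -0.80 (-0.53 and -0.54 with normexp), and RAB31 had -0.59 and -0.73 (-0.52 in KD1 with normexp). RAB3D, a Rab of secretory granules, had 0.96 and 0.93 (0.55 and 0.57 with normexp), and RAB7A, the Rab of late endosomes, had -0.03 and -0.03, with 0.34 and 0.17 at its other probe. The list's median of 0.04 in each knockdown changed to -0.02 in KD1 and -0.0043 in KD2 when the 75th percentile was taken over probes well above background. The median over all genes then went from -0.0038 to -0.059 in KD1 and from 0.020 to -0.025 in KD2.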

How the data were processed

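Per the file headers, the authors scanned 1-colour Agilent arrays (hg19 design) and extracted the intensity of each spot with Agilent Feature Extraction 10.7.1.1, which the submitters' processing notes also name, with background subtraction and no normalization between arrays. The deposited intensity files also hold other columns, such as 0 or 1 flags, used as given. The authors' series-level table of intensity, whose columns had medians of 12.7 in KD1, 13.0 in KD2 and 12.1 in NC, was equal to the scanner files within 1% at all 11 member probes, so its scale is linear and it is not centred.

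Control spots and outlier spots were left out, repeated spots were averaged as log2 values, and each array's 75th percentile over 58201 probes (237 in KD1, 228 in KD2 and 223 in NC) was subtracted. A value not well above background was raised to the lowest value that was, if that was higher. A probe was called at 1.5-fold, the fold part of the study's criterion, which also sets a p value, and no test was run. The extraction error of a log2 difference combines both arrays' errors. Members and lists were chosen with earlier results of these data known. Named genes were all members, SMARCA4, PRMT1, list genes called in the same direction in both knockdowns and a fixed set of pathway genes, and CLDN4 and CLDN7 were named after their values were seen. Values of 1 list of clients and of 3 other genes, with genes called in both knockdowns among them, are left out of the text and still count in the totals, so the account of clients and partners is partial. Gene names are those of the array files, which held every listed gene except CD68. Alternatives were quantile normalization, the percentile over probes well above background, normexp with an offset of 50 (limma 3.58.1, R 4.3.3), the series-level table, no floor, a 2-fold threshold, other filters and the mean over a gene's probes. The steps were tested on data simulated from the NC array, with noise smaller than the extraction error and changes only in probes well above background. That test checks the code and does not show how precise dim probes are. Python 3.11.15, numpy 2.4.6, pandas 2.3.3 and matplotlib 3.10.9 were used.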

Additional observations from a re-analysis of the deposited data

Results flagged for a closer look

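Flagged were 2 member probes at which the knockdown arrays differed from each other. The A_23_P256632 probe of PGGT1B was above NC in SMARCA4-KD1 and under it in SMARCA4-KD2, and SMARCA4-KD1 minus SMARCA4-KD2 was 0.72 on the log2 scale and 0.50 with normexp, under 1.5-fold. For the RCE1 probe the same difference was 0.52, under 1.5-fold. There SMARCA4-KD2 was at -0.02 from NC with an extraction error of 0.21, so these arrays were alike. Neither difference between the knockdowns was tested, since each is 1 array against 1 array.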

How the results depend on the processing

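Of 22 differences from NC over the 11 member probes, 20 kept their sign under the main setting and all 5 alternatives of scaling, background correction, floor and input table, and the exceptions were both differences of A_24_P336705 of RABGGTB. From NC, 2 probes moved across 1.5-fold, and between the knockdowns 1 other did. With normexp, whose offset shrinks differences of dim probes by construction, A_33_P3381022 of ICMT went to -0.29 in SMARCA4-KD1 and -0.21 in SMARCA4-KD2, so that 0 member probes were lower in either knockdown and 0 were 1.5-fold apart between them, with A_23_P256632 of PGGT1B at 0.50. With quantile normalization, which took ZMPSTE24 to 0.55 and 0.52, 0 member probes were higher in either knockdown, and the cause was not tested. At 2-fold, 0 member probes were lower in SMARCA4-KD2, 0 were higher in either knockdown and 0 were apart between them. Over the pathway lists, genes lower in both knockdowns were 7 with normexp, 4 at 2-fold, 16 with quantile normalization and 14 with the mean over a gene's probes in place of 11, and genes higher in both were 2 at 2-fold and 10 to 12 otherwise in place of 11. The lists' median of 0.018 in SMARCA4-KD1 became -0.049 with quantile normalization, -0.038 with the percentile over probes well above background and -0.021 with no filter. In SMARCA4-KD2 the median of -0.0039 became -0.063, -0.049 and -0.035 under these, and 0.018 with the mean over a gene's probes. No paired analysis was possible because each group has 1 array. Signal over background limits what A_33_P3381022 can show, and 1 array per group limits every value.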
